A study of Mus musculus with 6 samples.

Results

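The Wnt and planar polarity pathway was read here from 43 genes listed by name, which encode Wnt ligands and the proteins that export them, Frizzled and LRP receptors, Dishevelled proteins, the destruction complex, TCF/LEF factors, secreted and cytoplasmic inhibitors, alternative Wnt receptors, and the core planar polarity proteins. The deposited expression table held values for 40 of the 43 among its 19255 genes. *Fzd8*, *Axin2* and *Nkd1* were not analysed here. The values came from 6 RNA-seq libraries of 4T1 cells, a mammary carcinoma line from BALB/c mice. Of these, 3 libraries were from control cells labelled WT, which the study calls sgCtrl, and 3 were from cells labelled UBA6 knockout, called sgUba6. The sgUba6 cells were made from Cas9-expressing 4T1 cells with a lentiviral vector for guide RNAs against *Uba6* and puromycin selection, sgCtrl cells being their control. The labels give the same treatment text, a UBA6 guide RNA with a Cas9 vector, for both groups, the controls included. The groups used here therefore rest on the sample titles and the genotype labels. Whether the sgUba6 cells were 1 clone is not stated, nor is the origin of the 3 libraries within each group, and p-values therefore cover the spread among these 6 libraries, which may in part be technical.

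Wnt ligands are lipid-modified secreted proteins that bind Frizzled receptors at the cell surface. With an LRP co-receptor, they recruit Dishevelled and halt the destruction complex, so that β-catenin is spared from degradation and acts with TCF/LEF factors on target genes. Frizzled and Dishevelled also serve planar polarity, in which the Celsr, Vangl and Prickle proteins are distributed unequally across a cell and orient it within an epithelium. In mammary tissue, Wnt signalling is known for its part in ductal development and stem cell maintenance, and mouse mammary tumours were where the first Wnt gene was found.

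The targeted gene, *Uba6*, which encodes an E1 enzyme for ubiquitin and FAT10, was lower in each sgUba6 library (10.9, 12.1 and 12.03 FPKM, a read density scaled to transcript length and library size) than in any sgCtrl library (16.4, 16.4 and 17.0 FPKM). These mRNA levels do not measure the protein. The 6 libraries summed to between 352535 and 362762 FPKM, and correlations of log2 values were 0.991 to 0.992 within a group and 0.961 to 0.963 between groups. Of the 11 epithelial markers with values, 4 were higher in sgUba6, 2 lower and 5 not past an adjusted p of 0.05. *Epcam* rose from 124 ± 18.4 to 229.6 ± 4.94 FPKM (log2 fold change 0.90, adjusted p = 0.000488), *Cldn4* by 0.75, *Cldn7* by 0.63 and *Esrp1* by 0.24, whereas *Krt8* fell by 0.22 and *Krt14* by 0.29. Those not called included *Cdh1* (E-cadherin) at 229 ± 4.97 and 234 ± 7.69 FPKM and *Krt18* (keratin 18) at 663 ± 12.3 and 648 ± 3.65 FPKM (SD, n = 3, sgCtrl first). The pan-leukocyte gene *Ptprc* was at most 0.0195 FPKM and the fibroblast gene *Dcn* at 0 in all libraries but 1. Some markers of other cells moved with the groups, while *Ptprc*, *Dcn* and *Col1a2* overlapped between them. The summed FPKM of the 3 leukocyte markers with values (of 7 listed) was 7.73 to 8.65 in sgCtrl and 17.1 to 18.5 in sgUba6, nearly all of it *Cd68*, and that of the 4 fibroblast markers (of 6 listed) was 2.96 to 3.19 and 5.40 to 6.70. Most of the fibroblast sum was *Pdgfra*, at 2.69 ± 0.126 FPKM in sgCtrl and 5.28 ± 0.575 FPKM in sgUba6 (SD, n = 3). The only endothelial marker with values, *Pecam1*, was at most 0.214 FPKM and was lower in sgUba6, below the filter and not tested. The part of these marker differences in the pathway results was not tested.

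Of the 40 members with values, 37 reached 0.5 FPKM in at least 3 libraries and were compared between the groups on the scale log2(FPKM + 0.5) with limma, its p-values adjusted after Benjamini and Hochberg over all 12190 genes that passed this filter. The added constant makes the fold changes of low genes smaller than the ratios of their FPKM. At an adjusted p under 0.05, 16 members were higher and 10 lower in sgUba6, while 11 did not pass. Differences were common in these cells: 24.7% of all genes tested were called higher and 22.7% lower, 47.4% in all, against 70.3% of the members tested. The members were chosen with earlier results of these data known, so this contrast with all genes is no test of the pathway. In 29 of the 37 members (78.4%), and in 57.6% of all genes tested, all libraries of the higher group lay above all of the lower. The median log2 fold change of the members was 0.14 and their median absolute value 0.29, beside 0.010 and 0.23 over all genes. Of the 26 members called, 13 changed by at least 0.5 on the log2 scale. Among these, 10 were higher (*Fzd1*, *Fzd4*, *Fzd5*, *Tcf7*, *Lef1*, *Sfrp1*, *Ptk7*, *Vangl2*, *Prickle1* and *Celsr1*) and 3 lower (*Fzd6*, *Dvl2* and *Nkd2*). The share of all genes called with a change of that size was not computed, so this count and its split are descriptive only. *Prickle1* and *Nkd2* passed the filter only through the group in which they were high. In bulk libraries such as these, fewer cells with an RNA and less of it per cell cannot be told apart.

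**Figure D1:**
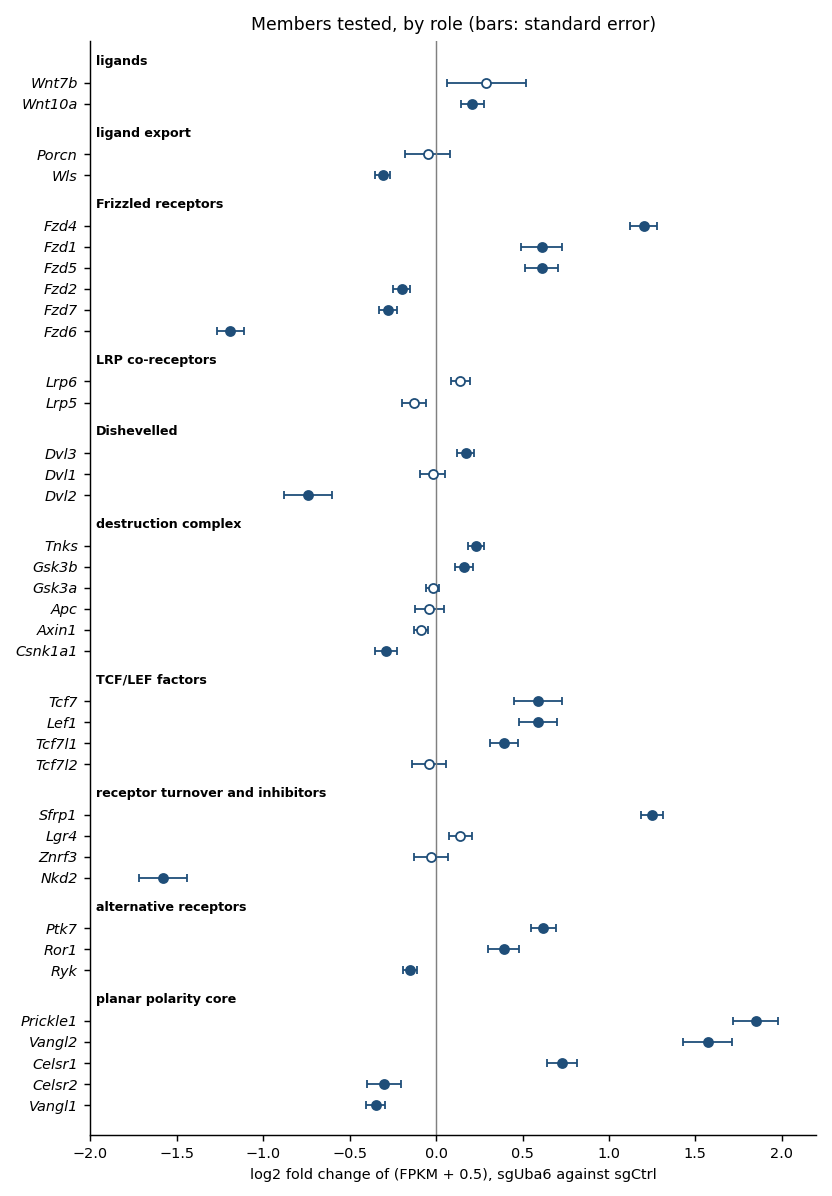
Log2 fold change of FPKM + 0.5, sgUba6 against sgCtrl (3 libraries each), for the 37 members tested, grouped by role. Points are limma estimates with their standard error, filled where the adjusted p was under 0.05, and the changes run from -1.58 (*Nkd2*) to 1.85 (*Prickle1*) with both directions in most roles.

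To show start sites of strongly changed members, the 250 bases before a RefSeq transcription start are given for *Prickle1*, *Vangl2* and *Fzd4*, which rose, and for *Nkd2*, which fell. These had the largest changes among the members matched in the RefSeq table, and *Sfrp1* and *Fzd6*, which changed about as much as *Fzd4*, were not matched. They are written 5′ to 3′ on the gene's own strand in build GRCm38.p6, with each CpG dinucleotide in capitals. *Prickle1* has another annotated start downstream, which is not shown. The *Vangl2* stretch lies inside the gene coordinates given below, downstream of their 5′ end at 172028444. The sequences lie at chr15:93595903-93596152 (minus strand, *Prickle1*), chr1:172027296-172027545 (minus strand, *Vangl2*), chr7:89404116-89404365 (plus strand, *Fzd4*) and chr13:73847632-73847881 (minus strand, *Nkd2*).
Prickle1: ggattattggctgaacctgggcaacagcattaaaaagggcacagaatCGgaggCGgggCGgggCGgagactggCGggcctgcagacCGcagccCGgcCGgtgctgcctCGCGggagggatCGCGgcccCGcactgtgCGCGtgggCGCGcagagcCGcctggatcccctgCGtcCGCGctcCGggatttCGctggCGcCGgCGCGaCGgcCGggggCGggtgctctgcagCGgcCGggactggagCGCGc
Vangl2: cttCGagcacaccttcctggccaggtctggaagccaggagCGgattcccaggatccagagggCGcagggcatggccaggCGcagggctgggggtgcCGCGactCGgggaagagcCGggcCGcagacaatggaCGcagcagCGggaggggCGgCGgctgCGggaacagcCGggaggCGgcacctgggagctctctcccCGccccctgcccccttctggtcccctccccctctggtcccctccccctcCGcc
Fzd4: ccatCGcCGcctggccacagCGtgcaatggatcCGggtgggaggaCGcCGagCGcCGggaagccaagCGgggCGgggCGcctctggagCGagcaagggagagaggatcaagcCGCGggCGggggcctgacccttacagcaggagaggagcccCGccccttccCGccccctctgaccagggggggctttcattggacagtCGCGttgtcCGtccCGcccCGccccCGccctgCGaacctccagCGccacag
Nkd2: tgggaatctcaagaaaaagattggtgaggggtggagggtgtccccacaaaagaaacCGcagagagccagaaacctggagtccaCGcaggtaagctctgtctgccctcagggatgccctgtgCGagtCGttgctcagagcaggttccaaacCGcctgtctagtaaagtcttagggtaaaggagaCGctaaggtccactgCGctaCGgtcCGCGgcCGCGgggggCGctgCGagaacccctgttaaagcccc
The stretch was 74.0% G or C with 34 CpG in *Prickle1*, 73.6% with 18 in *Vangl2*, 72.8% with 25 in *Fzd4* and 58.4% with 14 in *Nkd2*. RefSeq windows of 300 bases around a start were at hand for 24 of the 40 members, 32 windows in all. A 7-base TCF/LEF motif (ATCAAAG or TTCAAAG, either strand) was in the windows of 2 members, *Gsk3a* and *Wnt5b*, or 6.25% of member windows, and in 8.65% of the 32851 windows of all genes. None of the windows of the 4 genes printed held it. Over the 250 bases before the start, the length printed, the median CpG count was 15 in the member windows and 6 in all windows. The median G or C content of the 300 bases was 66.3% and 52.7%. The windows of all genes were not limited to expressed genes, and some members had several, so these contrasts are descriptive only.

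Ligand mRNA was dominated by *Wnt7b*, while the called change was in *Wnt10a*. *Wnt7b*, a ligand known from lung development, stood at 57.7, 42.4 and 62.3 FPKM in sgCtrl and at 85.1, 47.1 and 70.1 FPKM in the sgUba6 libraries. The groups overlapped, library 2 being the lowest of each group, and the log2 fold change of 0.29 (standard error, SE, 0.23) did not pass (limma adjusted p = 0.338). *Wnt10a*, a ligand of ectodermal organs, was at 5.78, 6.01 and 5.35 FPKM in sgCtrl and at 6.60, 6.53 and 6.89 FPKM in sgUba6. Each sgUba6 library lay above the sgCtrl libraries, and the log2 fold change was 0.21 (SE 0.067, adjusted p = 0.039). That call was lost when sgCtrl library 1 or 3 or any sgUba6 library was left out, without the filter, under quantile normalization, and with the replicate block (adjusted p = 0.0691 to 0.114). The other ligands among the members were near the floor. *Wnt4* was at 0.0196 to 0.0471 FPKM in sgCtrl and listed at 0 in each sgUba6 library, and *Wnt5b* ranged from 0.116 to 0.323 FPKM over both groups.

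Of 15 further ligand genes, 7 had values and 4 passed the filter. *Wnt7a*, the close relative of *Wnt7b*, was at 23.4 ± 0.317 and 20.9 ± 1.93 FPKM (adjusted p = 0.104), and *Wnt9a* at 9.45 ± 0.656 and 9.19 ± 0.487 FPKM (adjusted p = 0.699; SD, n = 3, sgCtrl first). *Wnt11*, a ligand of β-catenin-independent signalling in vertebrate gastrulation, was the only one called (25.0% of those tested, beside 47.4% of all genes). It was at 0.0326, 0.0886 and 0.153 FPKM in sgCtrl and at 1.01, 0.745 and 0.972 FPKM in sgUba6, a log2 fold change of 1.25 (SE 0.14, adjusted p = 0.000439), having passed the filter through sgUba6 alone. With added constants of 0.1 and 1 it was 2.44 and 0.81. The summed FPKM of all 11 ligand genes with values was 93.6 ± 9.37 in sgCtrl and 106.2 ± 19.2 in sgUba6 (SD, n = 3), and *Wnt7b* held 51.0% to 67.9% of it in every library.

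Export of the ligands requires *Porcn*, an acyltransferase of the endoplasmic reticulum, and *Wls*, the carrier that brings lipid-modified Wnt to the plasma membrane. *Wls* fell from 36.4, 37.3 and 37.0 FPKM to 29.5, 28.6 and 30.7 FPKM, with no overlap. Its log2 fold change was -0.31 (SE 0.042, adjusted p = 0.00105). *Porcn* was at 1.45 ± 0.276 FPKM in sgCtrl and 1.37 ± 0.145 FPKM in sgUba6 (SD, n = 3) and did not pass (adjusted p = 0.786).

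**Figure D2:**
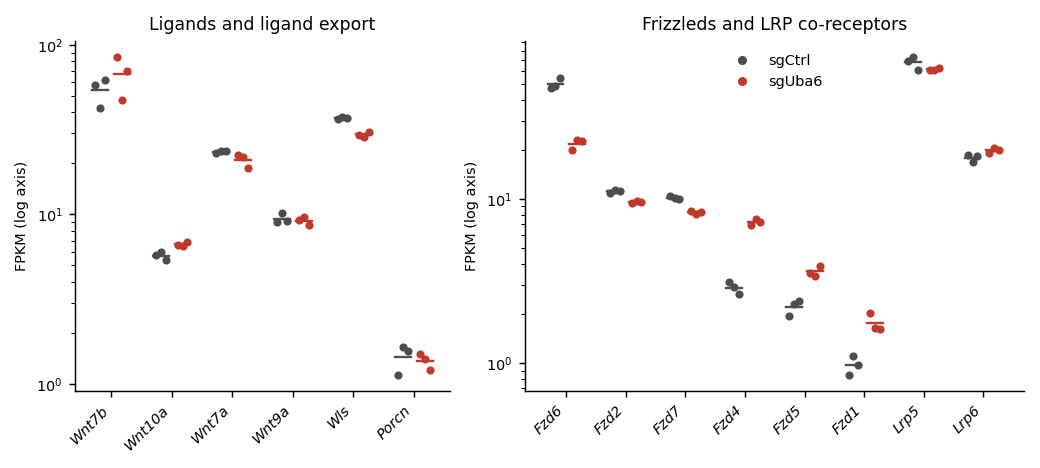
FPKM on a log axis of ligand and export genes (left) and of Frizzled and LRP genes (right) in each sgCtrl and sgUba6 library, with bars at the group means. *Fzd6* drops from about 50.1 to 21.7 FPKM while *Fzd4* climbs from 2.88 to 7.25 FPKM, and the *Wnt7b* values of the 2 groups overlap.

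All 6 Frizzled members with values were called, 3 upwards and 3 downwards, beside 47.4% of all genes tested. The most abundant one fell the most. *Fzd6* (ENSMUSG00000022297, chromosome 15 of GRCm38, 39006034 to 39038188, plus strand), a receptor needed for hair patterning in mice, was at 47.5, 48.5 and 54.4 FPKM in sgCtrl and at 19.8, 22.9 and 22.5 FPKM in the sgUba6 libraries. The lowest sgCtrl library was above the highest sgUba6 library by a wide margin, and the fall was 2.30-fold in mean FPKM (log2 fold change -1.19, SE 0.077, limma adjusted p = 4.96e-05). *Fzd4* (ENSMUSG00000049791, chromosome 7, 89404355 to 89413134, plus strand), a receptor for Norrin as well as for Wnts in the retinal vasculature, moved the other way. Its values were 3.12, 2.89 and 2.62 FPKM in sgCtrl and 6.97, 7.54 and 7.23 FPKM in sgUba6. This was a 2.52-fold rise with no overlap (log2 fold change 1.20, SE 0.080, adjusted p = 5.54e-05).

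*Fzd5* (ENSMUSG00000045005, chromosome 1, 64730558 to 64737751, minus strand), a receptor of the β-catenin pathway, was at 1.94, 2.28 and 2.37 FPKM in sgCtrl and at 3.56, 3.41 and 3.89 FPKM in sgUba6. *Fzd1* (ENSMUSG00000044674, chromosome 5, 4753839 to 4758035, minus strand) was lower in level, at 0.848, 1.10 and 0.977 FPKM against 2.03, 1.63 and 1.61 FPKM. Both rose by 0.61 on the log2 scale (SE 0.095 and 0.12, adjusted p = 0.002 and 0.00523), and neither had overlapping groups. *Fzd2* and its close relative *Fzd7* fell by less, by 0.20 and 0.28 (adjusted p = 0.0134 and 0.0043), from 11.1 ± 0.242 to 9.60 ± 0.0887 FPKM and from 10.2 ± 0.214 to 8.28 ± 0.165 FPKM (SD, n = 3). *Fzd3* and *Fzd9* are no members but complete the family in the table. *Fzd9* was called higher (0.562 ± 0.0918 to 0.877 ± 0.112 FPKM, log2 fold change 0.38, adjusted p = 0.0391), while *Fzd3* did not pass (2.69 ± 0.0711 and 2.94 ± 0.074 FPKM, adjusted p = 0.254). The *Fzd9* call was lost when any library other than sgCtrl library 1 was left out, without the filter, with the replicate block and under quantile normalization (0.18 there, adjusted p = 0.0501 to 0.287 in all).

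Summed over these 8 genes, Frizzled mRNA was 80.7 ± 3.53 FPKM in sgCtrl and 56.1 ± 1.66 FPKM in sgUba6 (SD, n = 3). *Fzd6* lost more FPKM than the sum did. *Fzd6* made up 60.8%, 61.2% and 64.2% of the family in sgCtrl and 36.5%, 40.1% and 39.7% in sgUba6. The share of *Fzd4* was 3.58% ± 0.456 and 12.9% ± 0.234, and that of *Fzd5* was 2.72% ± 0.204 and 6.46% ± 0.446. *Fzd2* and *Fzd7*, although lower in FPKM, took larger shares of the smaller sum (13.8% to 17.1% and 12.6% to 14.8%).

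**Figure D3:**
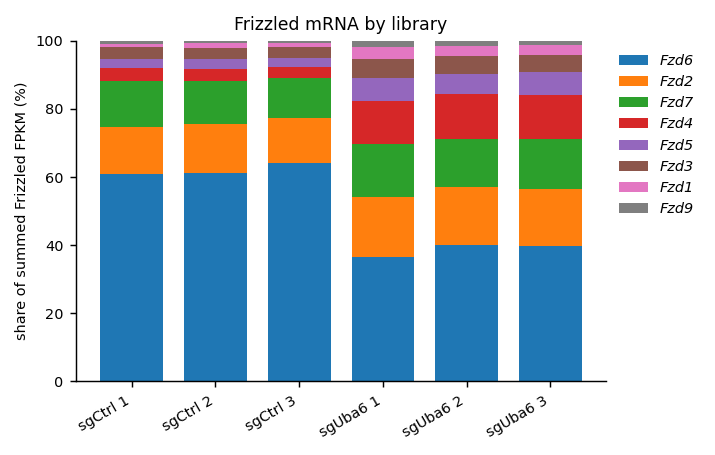
Share of each Frizzled gene in the summed FPKM of the 8 Frizzled genes with values, as a stacked bar per library. The *Fzd6* share is 60.8% to 64.2% in the 3 sgCtrl libraries and 36.5% to 40.1% in the 3 sgUba6 libraries, and *Fzd4*, *Fzd5* and *Fzd1* widen in each sgUba6 bar.

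The LRP co-receptors, which bind Wnt together with a Frizzled, did not pass. *Lrp5* was at 69.3, 73.6 and 61.0 FPKM in sgCtrl and at 61.0, 61.2 and 63.2 FPKM in sgUba6 (log2 fold change -0.13, SE 0.069, adjusted p = 0.157). Without sgCtrl library 3, its lowest control, *Lrp5* was called lower (-0.21, adjusted p = 0.0127). *Lrp6* rose in each library without overlap, from 17.9 ± 0.859 to 19.8 ± 0.561 FPKM (SD, n = 3), and missed the threshold (log2 fold change 0.14, adjusted p = 0.0619), except under quantile normalization (0.17, adjusted p = 0.0445). Among other receptors and R-spondins, 7 of 13 genes had values and 5 were tested. Of these, 4 were higher and none lower (80.0% called, beside 47.4% of all genes tested). *Adgra2* and *Reck*, which act together as a co-receptor for Wnt7 ligands in brain endothelium, went from 0.152 ± 0.0243 to 1.06 ± 0.0445 FPKM (log2 fold change 1.26, adjusted p = 0.000125, passed through sgUba6 alone, 2.21 with a constant of 0.1) and from 1.40 ± 0.113 to 2.11 ± 0.226 FPKM (0.45, adjusted p = 0.0099, but 0.0533 after quantile normalization). *Lgr6*, an R-spondin receptor and relative of *Lgr4*, went from 7.37 ± 0.439 to 9.90 ± 0.496 FPKM (0.40, adjusted p = 0.00295).

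The 3 Dishevelled genes, which encode the cytoplasmic adaptors of Frizzled, parted ways. *Dvl2* (ENSMUSG00000020888, chromosome 11, 70000595 to 70012301, plus strand) was at 18.1, 18.5 and 16.1 FPKM in sgCtrl and at 8.97, 9.25 and 13.1 FPKM in sgUba6. Library 3 of sgUba6 lay between the controls and the other sgUba6 libraries without overlapping the controls, and the log2 fold change was -0.74 (SE 0.14, limma adjusted p = 0.00497). Without that library it was -0.91. Exons of *Acadvl*, on the opposite strand, cover 18.3% of the exon length of *Dvl2*, and *Acadvl* was expressed at 26.3 to 27.3 FPKM in sgCtrl and 31.6 to 33.3 FPKM in sgUba6. Whether strand was used in the authors' quantification is not stated, so part of the *Dvl2* values may be reads of *Acadvl*, which moved in the opposite direction. *Dvl1*, the most abundant, was at 32.6, 30.03 and 29.9 FPKM in sgCtrl and 33.8, 29.2 and 28.5 FPKM in sgUba6, with overlapping groups (log2 fold change -0.02, adjusted p = 0.854). *Dvl3* rose slightly, from 12.4 ± 0.285 to 14.1 ± 0.492 FPKM (SD, n = 3; log2 fold change 0.17, adjusted p = 0.0285). The *Dvl3* call was lost when any library but sgUba6 library 1 was left out and with the replicate block (adjusted p = 0.0521 to 0.0943). *Dvl2* took 28.9% ± 1.34 of the summed Dishevelled FPKM in sgCtrl and 18.9% ± 3.82 in sgUba6.

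The destruction complex, which phosphorylates β-catenin for degradation, showed only changes under 0.5 on the log2 scale. *Csnk1a1*, the casein kinase that primes β-catenin, was its most abundant member and fell from 120.5, 135 and 128 FPKM to 96.3, 108 and 109.9 FPKM. The groups did not overlap (log2 fold change -0.29, SE 0.066, adjusted p = 0.0109). *Tnks*, the tankyrase that marks axin for degradation, rose from 24.6 ± 0.268 to 28.9 ± 1.37 FPKM (0.23, adjusted p = 0.00749), and *Gsk3b*, the kinase that follows the priming, rose from 13.6 ± 0.654 to 15.2 ± 0.163 FPKM (0.16, adjusted p = 0.0443; SD, n = 3). The *Gsk3b* call did not hold when any library but sgCtrl library 2 was left out, nor without the filter, with median-of-ratios scaling, without the trend or with the replicate block (adjusted p = 0.0506 to 0.122). The scaffolds *Axin1* (40.9 ± 0.811 and 38.5 ± 1.05 FPKM) and *Apc* (12.8 ± 0.964 and 12.5 ± 1.08 FPKM) did not pass, and neither did *Gsk3a* (48.2 ± 0.324 and 47.7 ± 1.12 FPKM), which shares 28.3% of its exon length with an antisense gene at up to 6.76 FPKM.

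β-catenin itself, *Ctnnb1*, was at 185, 211 and 159.7 FPKM in sgCtrl and at 199.6, 202 and 205 FPKM in sgUba6, a log2 fold change of 0.13 (SE 0.092) that did not pass (adjusted p = 0.27). The sgUba6 values lay within the range of the controls, of which library 2 was the highest, and *Ctnnb1* was called higher without that library (0.23, adjusted p = 0.0335). The list of cytoplasmic genes beyond the members held 19, *Ctnnb1* included. All were tested, and 7 were higher and 2 lower (47.4% called, the same share as over all genes tested). *Siah1b*, an E3 ubiquitin ligase able to target β-catenin, fell from 8.76 ± 0.439 to 2.69 ± 0.384 FPKM (log2 fold change -1.54, adjusted p = 5.12e-05). It shares 1405 bases at 95.1% identity with *Siah1a* (12.3 ± 0.578 and 13.2 ± 0.800 FPKM, adjusted p = 0.256), so the split of reads between these 2 genes is uncertain. *Apc2*, a relative of *Apc* best known from neurons, rose from 0.449 ± 0.0852 to 1.903 ± 0.275 FPKM (1.34, adjusted p = 0.000233). *Frat2* and *Frat1*, which bind GSK3 and keep it from axin, rose from 0.653 ± 0.0384 to 1.97 ± 0.271 FPKM (1.09, adjusted p = 0.000312) and from 0.166 ± 0.0438 to 0.624 ± 0.154 FPKM (0.75, adjusted p = 0.00445, passed through sgUba6 alone; SD, n = 3). The change of *Frat1* was 1.44 and 0.47 with constants of 0.1 and 1 and was not called after quantile normalization (0.42, adjusted p = 0.0535).

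Of the 4 TCF/LEF factors, which bind DNA and recruit β-catenin, 3 were higher and none lower. Over all genes tested, 24.7% were called higher and 22.7% lower. *Tcf7* (ENSMUSG00000000782, chromosome 11, 52252371 to 52283014, minus strand) was at 3.58, 4.97 and 4.90 FPKM in sgCtrl and at 7.73, 7.22 and 5.94 FPKM in sgUba6. *Lef1* (ENSMUSG00000027985, chromosome 3, 131110471 to 131224356, plus strand) was at 0.385, 0.532 and 0.548 FPKM in sgCtrl and at 0.967, 1.02 and 0.971 FPKM in sgUba6, a low level in both groups. Neither gene overlapped between groups, and each changed by 0.59 on the log2 scale (SE 0.14 and 0.11, adjusted p = 0.0143 and 0.00459 from limma). The *Lef1* estimate was 0.90 with an added constant of 0.1 and 0.38 after quantile normalization, with the call unchanged in both. *Tcf7l1*, which mostly acts as a repressor, rose from 5.75 ± 0.600 to 7.69 ± 0.160 FPKM (0.39, adjusted p = 0.00681; SD, n = 3). *Tcf7l2*, the most abundant in sgCtrl, was at 8.27, 6.87 and 8.76 FPKM there and at 7.47, 8.18 and 7.43 FPKM in sgUba6, with overlapping groups (-0.04, adjusted p = 0.75). In sgUba6 the means of *Tcf7l1* and *Tcf7l2* were both 7.69 FPKM, and that of *Tcf7* was 6.96 FPKM.

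Among nuclear cofactors, 13 were tested, 3 of them higher and 2 lower (38.5% called, beside 47.4% of all genes tested). *Pygo2*, which with *Bcl9* links β-catenin to chromatin, was at 25.5, 27.0 and 27.0 FPKM in sgCtrl and at 22.6, 13.3 and 10.5 FPKM in sgUba6, lower in every library but to very different extents (log2 fold change -0.83, SE 0.25, adjusted p = 0.0293). The call was lost when any library but sgUba6 library 1 was left out (-0.60 to -0.85, adjusted p = 0.0633 to 0.0856). *Bcl9* moved upwards, from 15.2 ± 0.979 to 21.5 ± 0.659 FPKM (0.49, adjusted p = 0.000719). *Tle4*, a Groucho corepressor, rose from 2.81 ± 0.213 to 5.18 ± 0.331 FPKM (0.78, adjusted p = 0.000402), and the kinase *Hipk2* from 6.55 ± 0.185 to 7.60 ± 0.332 FPKM (0.20, adjusted p = 0.0325; SD, n = 3). The *Hipk2* call did not outlast leaving out any library, nor quantile normalization, the lack of a filter or the replicate block (adjusted p = 0.0503 to 0.104). *Hipk2* also shares 472 bases at 100% identity with *Ubn2* (up to 8.51 FPKM).

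The inhibitors and regulators of receptor turnover held the largest fall and one of the largest rises. *Sfrp1* (ENSMUSG00000031548, chromosome 8, 23411502 to 23449632, plus strand) encodes a secreted Frizzled-like protein that binds Wnts outside the cell. It was at 2.58, 2.68 and 2.75 FPKM in sgCtrl and at 7.05, 6.97 and 7.17 FPKM in sgUba6. The libraries of a group were tightly spaced, and the rise was 2.65-fold (log2 fold change 1.25, SE 0.063, limma adjusted p = 1.98e-05). *Nkd2* (ENSMUSG00000021567, chromosome 13, 73818534 to 73847631, minus strand) encodes a Naked cuticle protein that binds Dishevelled inside the cell. It was at 1.19, 1.49 and 1.02 FPKM in sgCtrl and at 0.105, 0.0179 and 0.106 FPKM in sgUba6. No sgUba6 library came near a control, and the log2 fold change was -1.58 (SE 0.14, adjusted p = 0.000195). The gene had passed the filter through sgCtrl alone. For so low a gene the estimate moved with the added constant, from -2.95 at 0.1 FPKM to -1.05 at 1 FPKM, with the call kept.

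*Lgr4*, the R-spondin receptor that spares Frizzleds from degradation, was the most abundant gene of this role, at 6.44, 6.77 and 7.29 FPKM in sgCtrl and 7.38, 7.67 and 7.71 FPKM in sgUba6. Its groups did not overlap, but the change of 0.14 did not pass (adjusted p = 0.117). *Znrf3*, the ubiquitin ligase that removes Frizzleds from the surface, was at 5.31 ± 0.142 and 5.22 ± 0.679 FPKM (SD, n = 3; adjusted p = 0.834). *Dkk3* was listed at 0 in each sgCtrl library and reached 0.017 to 0.0893 FPKM in sgUba6. Of 22 further inhibitor genes, 12 had values and 9 were tested, 3 higher and 3 lower (66.7% called, beside 47.4% of all genes tested). *Shisa2*, whose relative in Xenopus holds Frizzleds back in the endoplasmic reticulum, went from 0.0384 ± 0.0336 to 0.906 ± 0.0925 FPKM (log2 fold change 1.39, adjusted p = 0.00015), and *Notum*, the enzyme that strips the lipid from Wnts, from 0.204 ± 0.0903 to 0.603 ± 0.0416 FPKM (0.65, adjusted p = 0.00653, but 0.0654 after quantile normalization). Both passed through sgUba6 alone, and with constants of 0.1 and 1 the changes were 2.89 and 0.88 for *Shisa2* and 1.25 and 0.41 for *Notum*. *Dact2*, a Dishevelled-binding protein, went from 4.91 ± 0.401 to 7.22 ± 0.826 FPKM (0.51, adjusted p = 0.00559). *Apcdd1*, a membrane inhibitor of Wnt reception, fell from 0.663 ± 0.030 to 0.361 ± 0.0522 FPKM (-0.44, adjusted p = 0.0145), having passed through sgCtrl alone (SD, n = 3). Its change was -0.73 and -0.29 with constants of 0.1 and 1 and -0.76 after quantile normalization, and it was not called without sgUba6 library 3 (-0.38, adjusted p = 0.0646).

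**Figure D4:**
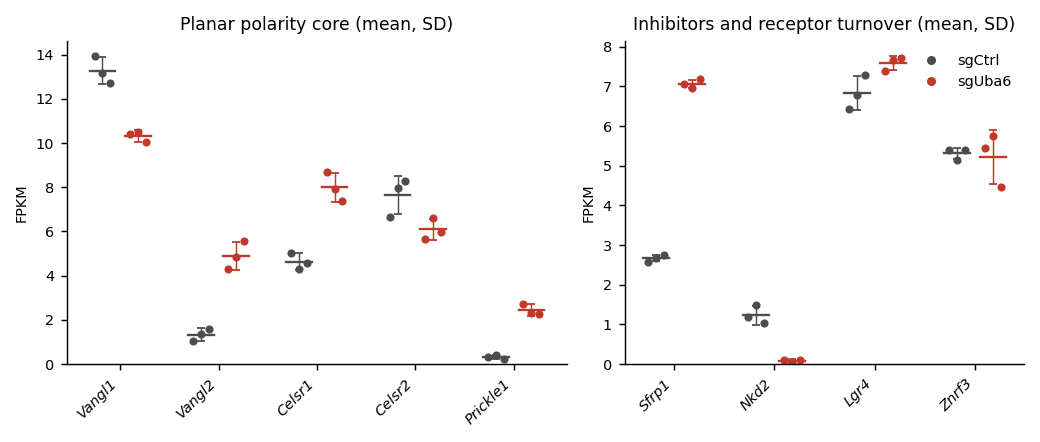
FPKM of the planar polarity core genes (left) and of the inhibitor and receptor turnover genes (right) in each library, with the group mean and SD (n = 3). *Vangl2*, *Celsr1*, *Prickle1* and *Sfrp1* are higher in every sgUba6 library than in any sgCtrl library, *Vangl1*, *Celsr2* and *Nkd2* are lower, and the *Znrf3* values overlap.

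All 3 alternative receptors, which are linked to β-catenin-independent Wnt signalling, were called, beside 47.4% of all genes tested. *Ptk7* (ENSMUSG00000023972, chromosome 17, 46564471 to 46629504, minus strand), a catalytically inactive receptor kinase with a role in planar polarity, was the most abundant over the 6 libraries. It was at 41.9, 34.7 and 40.3 FPKM in sgCtrl and at 62.3, 58.7 and 59.3 FPKM in sgUba6, without overlap (log2 fold change 0.62, SE 0.073, limma adjusted p = 0.000584). *Ror1*, a receptor for *Wnt5a*, rose from 1.60 ± 0.116 to 2.24 ± 0.171 FPKM (0.39, adjusted p = 0.0125), and *Ryk* fell from 51.3 ± 1.20 to 46.0 ± 1.60 FPKM (-0.15, adjusted p = 0.0212; SD, n = 3). Quantile normalization ended the calls of *Ror1* (0.22, adjusted p = 0.0876) and of *Ryk* (-0.11, adjusted p = 0.078). The *Ryk* call was also lost without library 1 or 3 of either group and with the replicate block (adjusted p = 0.0511 to 0.0729).

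All 5 core planar polarity genes were called, beside 47.4% of all genes tested. Within both gene pairs of the core the members moved in opposite directions. *Vangl2* (ENSMUSG00000026556, chromosome 1, 172000960 to 172028444, minus strand) encodes a membrane protein whose loss leaves the mouse neural tube open. It was at 1.03, 1.38 and 1.59 FPKM in sgCtrl and at 4.30, 4.85 and 5.56 FPKM in sgUba6. Every sgUba6 library was above every control, and the rise was 3.68-fold (log2 fold change 1.57, SE 0.14, limma adjusted p = 0.000194). *Vangl1*, its paralogue and the most abundant core gene, was at 13.9, 13.2 and 12.7 FPKM in sgCtrl and at 10.4, 10.5 and 10.0 FPKM in sgUba6. It fell without overlap (-0.35, SE 0.056, adjusted p = 0.00227). The sum of both genes was 14.6 ± 0.338 FPKM in sgCtrl and 15.2 ± 0.439 FPKM in sgUba6, and the share of *Vangl2* in it was 9.15% ± 2.1 and 32.2% ± 3.26 (SD, n = 3).

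*Celsr1* (ENSMUSG00000016028, chromosome 15, 85898929 to 86033777, minus strand) and *Celsr2* encode atypical cadherins that join the polarity complexes of neighbouring cells. *Celsr1* was at 5.03, 4.29 and 4.56 FPKM in sgCtrl and at 8.67, 7.94 and 7.38 FPKM in sgUba6 (log2 fold change 0.73, SE 0.087, adjusted p = 0.000623). *Celsr2* fell from 7.64 ± 0.864 to 6.09 ± 0.479 FPKM (-0.30, adjusted p = 0.0427; SD, n = 3). The groups of *Celsr2* were close, with 6.65 FPKM in sgCtrl library 1 and 6.61 FPKM in sgUba6 library 2. Its call was lost without the filter, without sgCtrl library 2 or 3, and without sgUba6 library 1 or 3 (adjusted p = 0.0677 to 0.12). *Celsr1* was 37.9% ± 4.54 of the summed FPKM of the pair in sgCtrl and 56.7% ± 3.26 in sgUba6, so that the more abundant of the 2 was *Celsr2* in the controls and *Celsr1* in sgUba6.

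*Prickle1* (ENSMUSG00000036158, chromosome 15, 93499114 to 93595891, minus strand), the cytoplasmic partner of Vangl proteins, had the largest rise of the members. It was at 0.331, 0.413 and 0.209 FPKM in sgCtrl and at 2.73, 2.32 and 2.28 FPKM in sgUba6, having passed the filter through sgUba6 alone. Mean FPKM rose 7.70-fold, and the log2 fold change was 1.85 (SE 0.13, limma adjusted p = 6.94e-05), or 2.63 with an added constant of 0.1 and 1.39 with 1. Of 20 other planar polarity genes, 17 had values and 12 were tested. Of these, 4 were higher and 4 lower (66.7% called, beside 47.4% of all genes tested). *Daam1*, a formin that binds Dishevelled, rose from 15.3 ± 0.714 to 20.8 ± 0.228 FPKM (0.43, adjusted p = 0.000548). *Intu*, a planar polarity effector at the cilium, fell from 2.07 ± 0.184 to 1.32 ± 0.279 FPKM (-0.50, adjusted p = 0.0203, but 0.0549 and 0.0638 without sgCtrl library 1 and 3), the kinase *Rock1* from 20.6 ± 1.38 to 15.3 ± 1.37 FPKM (-0.43, adjusted p = 0.00451), and the scaffold *Scrib* from 28.5 ± 1.08 to 22.3 ± 2.25 FPKM (-0.35, adjusted p = 0.00929; SD, n = 3). *Intu* shares 395 bases at 95.4% identity with *Ccdc82* (up to 33.1 FPKM), and similar stretches with other expressed genes. The assignment of reads to *Intu* is therefore uncertain. *Rac1*, a GTPase chosen for mention because of its values, was at 136, 134 and 136 FPKM in sgCtrl and at 136, 47.0 and 47.3 FPKM in sgUba6, and did not pass (-1.01, adjusted p = 0.0717). Without sgUba6 library 1 it was called lower (-1.51, adjusted p = 4.56e-05).

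Over the 103 other Wnt and polarity genes listed, 75 had values and 62 were tested. Of these, 22 were higher and 11 lower in sgUba6 (53.2% called), with a median log2 fold change of 0.08 and a median absolute value of 0.22. These shares and medians were nearer to those of all genes (47.4%, 0.010 and 0.23) than those of the members were. Because members and lists were chosen with earlier results of these data known, this contrast is descriptive only. The count of higher genes was 13 without sgUba6 library 1, 13 without sgUba6 library 2 and 12 without sgUba6 library 3. In each case 5 of the genes lost (*Wnt11*, *Adgra2*, *Notum*, *Shisa2* and *Frat1*) were no longer tested, because with 2 sgUba6 libraries they did not reach 0.5 FPKM in 3 libraries. The count of lower genes was 4, 6 and 5 without sgCtrl library 1, sgCtrl library 3 and sgUba6 library 3, *Apcdd1* not being tested where a control was left out.

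The last list held 26 genes known as transcriptional targets of β-catenin and TCF/LEF in various tissues, 18 of them with values and 17 tested. In sgUba6, 8 were higher and 6 lower (82.4% called, beside 47.4% of all genes tested), and 3 did not pass. The targets tested had a median log2 fold change of -0.03 and a median absolute value of 0.54, beside 0.010 and 0.23 over all genes. This list too was chosen with earlier results known, which leaves the contrast descriptive. Among the targets called, *Notum* and *Ccn5* passed the filter through sgUba6 alone and *Apcdd1* through sgCtrl alone. *Tcf7*, *Lef1*, *Znrf3*, *Notum*, *Apcdd1* and *Rnf43* belong to this list as well as to those above. *Id2*, an inhibitor of basic helix-loop-helix factors, rose from 4.48, 4.47 and 5.03 FPKM to 18.7, 18.6 and 17.98 FPKM (log2 fold change 1.88, SE 0.063, limma adjusted p = 6.04e-06). The matricellular CCN genes parted. *Ccn5* rose from 0.0651, 0.181 and 0.134 FPKM to 1.56, 1.55 and 2.0 FPKM (1.81, adjusted p = 8.18e-05, passed through sgUba6 alone, 3.02 with a constant of 0.1), and *Ccn4* fell from 48.0, 48.3 and 45.7 FPKM to 14.0, 13.8 and 13.1 FPKM (-1.76, adjusted p = 3.21e-06). *Cd44*, a hyaluronan receptor, rose from 85.2 ± 4.50 to 134 ± 5.08 FPKM (0.65, adjusted p = 9.68e-05; SD, n = 3). *Myc* and *Ccnd1*, both named after their values were seen, fell by 0.27 and 0.18 (adjusted p = 0.0022 and 0.00645).

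**Figure D5:**
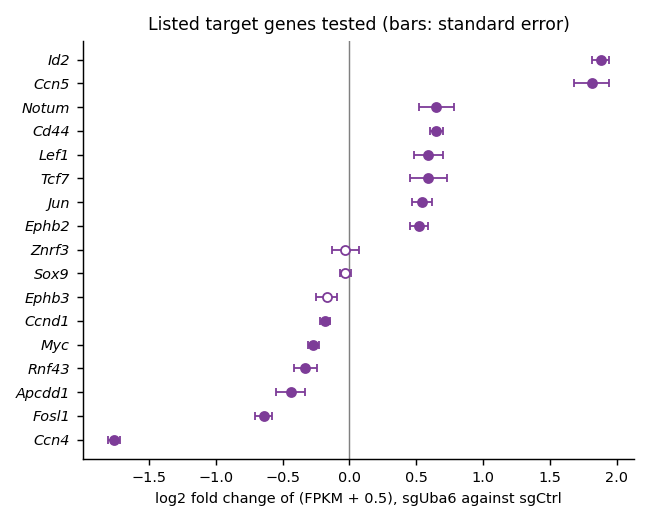
Log2 fold change of FPKM + 0.5, sgUba6 against sgCtrl (3 libraries each), for the 17 listed target genes that were tested. Points are limma estimates with their standard error, filled where the adjusted p was under 0.05, from 1.88 (*Id2*) down to -1.76 (*Ccn4*), with 8 higher, 6 lower and 3 not past the threshold.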

How the data were processed

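RNA-seq values of 4T1 cells were used as deposited, in FPKM per gene and library, which the authors computed from aligned reads. The study's methods describe Cutadapt, HISAT2 on GRCm38, StringTie and Cuffdiff, while the submitters' processing notes name CASAVA 1.8, Trimmomatic, HISAT2, RSEM and edgeR on mm10; it is not stated which of them made the FPKM. The FPKM did not resolve into whole reads, so depth is unknown, no count test was run, and no counting interval is given. The authors' columns of fold change, p-value and q-value between the groups were not used.

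Libraries were grouped by their labelled genotype. Genes were kept where 3 or more of the 6 libraries reached 0.5 FPKM, and log2(FPKM + 0.5) was compared with limma 3.58.1 in R 4.3.3 (lmFit, eBayes with trend, Benjamini-Hochberg over 12190 genes, threshold 0.05), after a test on simulated data. An exact permutation test of 3 against 3 cannot reach 0.05, so calls rest on limma's model. The members and the lists were chosen with earlier results of these data known. Values per library are given for each member called with a log2 fold change of at least 0.5 in size, and for the most changed and most abundant member of each role. In the other lists, up to 4 called genes are named by size of change, with *Ctnnb1*. Gene coordinates matched GENCODE M21 for all 40 members. Their transcripts were compared with those of other genes by blastn 2.17.0, and none shared a stretch over 187 bases at 95% identity with a gene elsewhere. Exons of an opposite-strand gene covered at least 10% of the exon length of 4 members. Besides *Dvl2* and *Gsk3a*, given above, these were *Fzd5* (17.8%, by a gene without values) and *Lef1* (13.7%, by a gene at up to 0.0275 FPKM). Alternatives were added constants of 0.1 and 1 FPKM, quantile normalization, scaling by the median of ratios, no filter, a filter of 1 FPKM, a fit without trend, the replicate number as a block, and leaving out each library.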

Additional observations from a re-analysis of the deposited data

How the results depend on the processing

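Of 26 members called, 20 passed the threshold in the same direction under every alternative that tested them. *Prickle1* without an sgUba6 library, and *Nkd2* without an sgCtrl library, did not pass the filter and were not tested. Over the 511 alternative values of the 37 members, 35 lost the call, all of them in *Wnt10a*, *Gsk3b*, *Celsr2*, *Ror1*, *Ryk* and *Dvl3*, and 2 gained one (*Lrp5* and *Lrp6*, given above). Those that changed sign belonged to 6 members not called. *Dvl1* came to 0.01 under quantile normalization, and to 0.02, 0.01 and 0.03 without sgCtrl library 1, sgUba6 library 2 and sgUba6 library 3. *Gsk3a* came to 0.03 under quantile normalization and to 0.0019 without sgUba6 library 3, *Porcn* to 0.03 without sgCtrl library 2 and 0.01 without sgUba6 library 3, *Apc* to 0.0021 without sgCtrl library 3 and 0.03 without sgUba6 library 1, *Tcf7l2* to 0.03 without sgCtrl library 3, and *Znrf3* to 0.07 without sgUba6 library 3. When single libraries were left out, the lowest values of these genes were -0.17 (*Porcn*), -0.09 (*Dvl1*), -0.10 (*Apc*), -0.03 (*Gsk3a*), -0.14 (*Tcf7l2*) and -0.10 (*Znrf3*). Of the 35 other genes followed in the same way, 8 lost a call in 28 of 463 values and 2 gained one, and *Fzd3* (-0.03 under quantile normalization) and *Wnt9a* (0.02 without sgCtrl library 2, and -0.07 at the lowest), neither of them called, changed sign.

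Leaving out a library gave 12 to 15 members higher and 8 to 10 lower, and 12 to 20 other pathway genes higher and 4 to 9 lower, with fewer degrees of freedom and with genes that then fail the filter left untested. The other settings gave 13 to 16 members higher and 9 to 10 lower. Same-numbered libraries showed no shared effect, their deviations from the group means correlating at 0.0156, -0.0567 and -0.0223. Whether they were prepared as pairs is not stated, and these correlations cannot settle it. The replicate block gave 13 members higher and 9 lower, and 2718 genes higher and 2552 lower in all. Depth is unknown from FPKM, so values near 0 cannot be told from absence.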
